A study of Mus musculus and Rattus norvegicus with 79 samples.

Results

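A group of 10 genes that slow growth signalling or protein synthesis was followed through a night of feeding or food withdrawal in mouse liver and after deletion of the glucocorticoid receptor (GR) gene Nr3c1 in hepatocytes. They are the 3 members of the 4E-BP family (Eif4ebp1, Eif4ebp2 and Eif4ebp3) together with Ddit4, Sesn1, Sesn3, Depp1, Crebrf, Txnip and Ulk1. These 10 genes of 24786 in the mouse tables were chosen by name with values of these data in view, because Eif4ebp3, Depp1 and Crebrf stood out. For each gene the RefSeq row with the highest summed count over both tables was used, and all 10 were found and passed the filter on low counts in both tables. Because of that choice, their response to feeding is given as a description, with no test. The effect of GR loss was tested for the 7 genes other than Eif4ebp3, Depp1 and Crebrf.

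The feeding table holds 27 polyA RNA libraries from liver of C57BL/6 mice that received no virus: unfed mice at zeitgeber time (ZT, hours after lights on) 10, and mice with or without food at ZT13, 14, 18 and 22. The second table holds 36 rRNA-depleted libraries from liver of Nr3c1fl/fl mice, which carry a floxed GR gene, taken 10 days after injection of AAV-tbg-GFP (control) or AAV-tbg-CRE. They comprise unfed mice at ZT10 and ZT12 and fed mice at ZT13, 14, 18 and 22 for each virus. The tbg promoter drives expression in hepatocytes, so other liver cells may keep the receptor gene. All mice were trained to eat at night under a light and dark cycle, and the labels used here give no age or sex. Every group has 3 libraries. The labels do not say that they come from separate mice, so the p-values measure the spread between these libraries. GR chromatin immunoprecipitation was from unfed liver at ZT10, with 1 GR and 1 input library of C57BL/6 mice without virus and 1 GR library each from Nr3c1fl/fl mice 10 days after AAV-tbg-GFP or AAV-tbg-CRE. The authors deposited 3 lists of GR peak positions, named as the peaks concordant between replicates, those with input as control and those with the knockout (AAV-tbg-CRE) liver as control. The labels do not say which replicates the concordant list joins, and the lists carry no heights, so peaks have no replicate error.

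When nutrients and insulin are plentiful, the kinase complex mTORC1 phosphorylates the 4E-BPs, which then release the cap-binding protein eIF4E and allow translation to start. When the 4E-BPs are unphosphorylated they hold eIF4E and translation slows. Ddit4 (REDD1) and the sestrins act upstream as inhibitors of mTORC1, and Ulk1 is a kinase that starts autophagy and is restrained by mTORC1. In liver, fasting raises glucagon and glucocorticoids and lowers insulin, which frees FOXO transcription factors to act in the nucleus.

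Total counts ranged from 23.9 to 91.8 M (mega) in the feeding table and from 34.6 to 78.8 M in the virus table. In 6 libraries of the virus table the ribosomal RNA row NR_046233 held over 20% of counts, namely all 3 GFP libraries at ZT10, GFP replicates 1 and 2 at ZT12, and CRE replicate 1 at ZT10. Nr3c1 itself was lower in CRE than in GFP liver by 0.64 ± 0.06 (SE) on the log2 scale over 6 times (edgeR adjusted p = 1.66e-09), and the CRE and GFP libraries did not overlap at any time. At ZT18 the Nr3c1 difference was -0.42 ± 0.14 log2 (edgeR adjusted p = 0.358) and at ZT22 -0.51 ± 0.14 log2 (edgeR adjusted p = 0.139). Neither was called. The Nr3c1 row counts the whole transcript, and the labels do not say which exons were floxed. Hepatocyte markers summed to 90629 to 126881 CPM (counts-per-million values) in the fed and unfed night libraries. In the virus table they summed to 37229 to 77310 CPM in CRE liver and to 43295 to 82549 CPM in GFP liver. Endothelial markers moved with feeding, 9 of 10 being lower in fed liver (268.6 to 394.0 CPM summed, against 316.8 to 482.1 in unfed liver). After GR loss 4 of 9 hepatocyte markers were lower. Of all tested genes, 17.9% were lower in fed liver and 6.71% after GR loss (edgeR, adjusted p under 0.05). Fewer cells of a type and less RNA per cell cannot be told apart in these bulk samples, and the part of these shifts in the results was not tested. One unfed library at ZT18 held 384.9 CPM of pancreatic acinar markers and 1 fed library at ZT14 held 116.9 CPM of bile duct markers.

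The sequences just upstream of 3 of the genes are shown because a GR peak or a motif lies in them. RefSeq promoter windows (GRCm38.p6) matched 8 of the 10 genes. The Depp1 sequence spans chr6:116650434-116650683 on the plus strand, and capitals mark the 139 bases inside a GR peak. In Txnip (chr3:96557707-96557956, plus strand) the capitals mark GTAAACA, a motif bound by FOXO factors. In Crebrf (chr17:26715400-26715593, plus strand) they mark the E-box CACGTG, bound by clock and MYC-type factors.
Depp1: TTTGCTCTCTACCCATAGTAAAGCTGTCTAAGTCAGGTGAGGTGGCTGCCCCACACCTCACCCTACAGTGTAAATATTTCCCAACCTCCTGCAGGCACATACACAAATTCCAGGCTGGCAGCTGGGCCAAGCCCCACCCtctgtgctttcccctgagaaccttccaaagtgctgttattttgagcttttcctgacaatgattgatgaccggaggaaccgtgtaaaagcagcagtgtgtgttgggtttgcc
Txnip: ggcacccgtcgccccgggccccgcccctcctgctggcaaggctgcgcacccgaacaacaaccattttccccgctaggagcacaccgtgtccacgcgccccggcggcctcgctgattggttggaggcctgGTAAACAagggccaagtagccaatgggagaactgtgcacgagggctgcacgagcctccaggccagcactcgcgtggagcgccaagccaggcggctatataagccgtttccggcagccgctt
Crebrf: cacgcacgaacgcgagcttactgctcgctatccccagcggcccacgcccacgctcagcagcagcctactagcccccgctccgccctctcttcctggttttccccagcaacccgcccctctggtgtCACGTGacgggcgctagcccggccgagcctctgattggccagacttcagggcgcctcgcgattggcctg
Each was read 5′ to 3′ and ends at the base before the RefSeq gene interval. GTAAACA, searched on both strands, was present in 3.65% of 32851 promoter windows of 300 bases and in 2 of the 9 windows of these genes, in Txnip from -121 to -115 and in Sesn1 from 22 to 28 after its first start. CACGTG was present in 7.15% of windows and only in Crebrf among the 9, at -125 to -120 and at -14 to -9 from the start site of its window. The gene interval of Crebrf begins at 26715594, upstream of that start site, and the second E-box lies inside it and is not shown. The GR half-site AGAACA was present in 19.0% of windows and in 0 of the 9, which says only that these letters are not in these windows.

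Eif4ebp3, the member of the 4E-BP family known as 4E-BP3, was higher at night than at ZT10 in unfed liver, and fed and unfed libraries overlapped until ZT18. In unfed liver it was at 21.1, 50.2 and 35.1 CPM at ZT10 and at 141, 133 and 122 CPM at ZT13. Fed liver at ZT13 held 101, 120 and 136 CPM, overlapping the unfed range. Every night library in unfed liver lay above the ZT10 libraries, and the difference from ZT10 to ZT13 without food was 1.89 ± 0.31 on the log2 scale. Fed liver at ZT22 held 26.6, 43.8 and 21.2 CPM while unfed liver held 71.9, 115 and 156 CPM. The fed and unfed libraries did not overlap at that hour, where the difference was -1.90 ± 0.32 log2, against -0.14 ± 0.30 at ZT13, -0.09 ± 0.30 at ZT14 and -0.48 ± 0.30 at ZT18. The order of its group means ran from fed ZT22 (30.5 CPM) to unfed ZT14 (139 CPM), a ratio of 4.57, and unfed ZT10 lay next to fed ZT22 within their spread.

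The other 4E-BPs showed smaller differences. Eif4ebp1, the 4E-BP studied most as an mTORC1 substrate, was at 36.7, 40.1 and 34.0 CPM in unfed liver at ZT22 and at 30.3, 32.9 and 20.8 CPM in fed liver. It was lower in every fed library at ZT18 and ZT22, and the mean over 4 hours was -0.27 ± 0.07 log2. Eif4ebp2 was at 99.9, 106 and 108 CPM in unfed liver at ZT14 and at 79.7, 86.1 and 84.1 CPM in fed liver, with a mean of -0.19 ± 0.05 log2. At the remaining hours its fed and unfed libraries overlapped.

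Among the inhibitors upstream of mTORC1, Ddit4 was higher in unfed liver from ZT13 to ZT18 than at ZT10. It was at 4.67, 10.5 and 4.34 CPM at ZT10 and at 58.1, 57 and 31.0 CPM in unfed liver at ZT13, a difference of 2.89 ± 0.46 log2. Fed liver at ZT13 held 15.3, 13.7 and 21.7 CPM, below every unfed library. The fed minus unfed difference was -1.53 ± 0.43 log2 at ZT13, -1.06 ± 0.44 at ZT14 and -0.83 ± 0.43 at ZT18, and its sign was opposite at ZT22 (0.77 ± 0.44), where the libraries overlapped. The sestrins act on mTORC1 through its amino acid branch. Group means spanned a ratio of 1.43 for Sesn1 and 1.80 for Sesn3. Sesn1 ranged from 12.8 to 24.5 CPM over all 27 libraries and differed by -0.14 ± 0.08 log2 over the 4 hours. Sesn3 was lower in every fed library at ZT13 only (6.61, 6.43 and 5.4 CPM against 7.75, 6.73 and 9.20), with a mean of -0.22 ± 0.09 log2.

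Depp1, a FOXO target implicated in autophagy, and Crebrf, a regulator of the CREB3 factors, were lower within hours of food. Depp1 was at 22.5, 33.4 and 13.5 CPM in unfed liver at ZT13 and at 4.06, 3.17 and 3.84 CPM in fed liver. The fed groups lay below the unfed groups without overlap at ZT13, ZT14 and ZT18 and overlapped them at ZT22, the differences being -2.66 ± 0.44, -2.70 ± 0.46, -1.64 ± 0.41 and -0.16 ± 0.39 log2. Depp1 lies inside the Rassf4 interval on chromosome 6. The Depp1 count was 27.5 to 92.5% of the Rassf4 count in the feeding table and 8.94 to 78.0% in the virus table. The labels do not say whether strand was used in counting, so reads of the overlapping genes cannot be told apart. Crebrf was at 31.6, 39.3 and 59.9 CPM in unfed liver at ZT13 and at 16.2, 13.4 and 15.7 CPM in fed liver, with differences of -1.53 ± 0.17, -1.50 ± 0.17, -1.25 ± 0.17 and -0.34 ± 0.16 log2 at the 4 hours in turn. As for Depp1, its fed and unfed libraries overlapped at ZT22.

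Txnip, an alpha-arrestin that binds thioredoxin and limits glucose uptake, was lower in fed liver at every hour. At ZT22 unfed liver held 78.3, 128 and 99.2 CPM and fed liver 38.2, 33.6 and 35.7 CPM. All fed libraries lay below all unfed libraries at each of the 4 hours, and the mean difference was -1.17 ± 0.15 log2 (-1.0 without unfed ZT13 replicate 2, which held 189 CPM). The noncoding gene Gm15441 covers Txnip, and Txnip made up 96.1 to 100% of its count, so that the rows cannot be told apart. Ulk1 was at 106, 101 and 110 CPM in unfed liver at ZT14 and at 51.9, 59.4 and 54.5 CPM in fed liver, a difference of -0.93 ± 0.15 log2. At ZT18 the fed libraries were again all lower, and at ZT13 and ZT22 the groups overlapped.

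**Figure D1:**
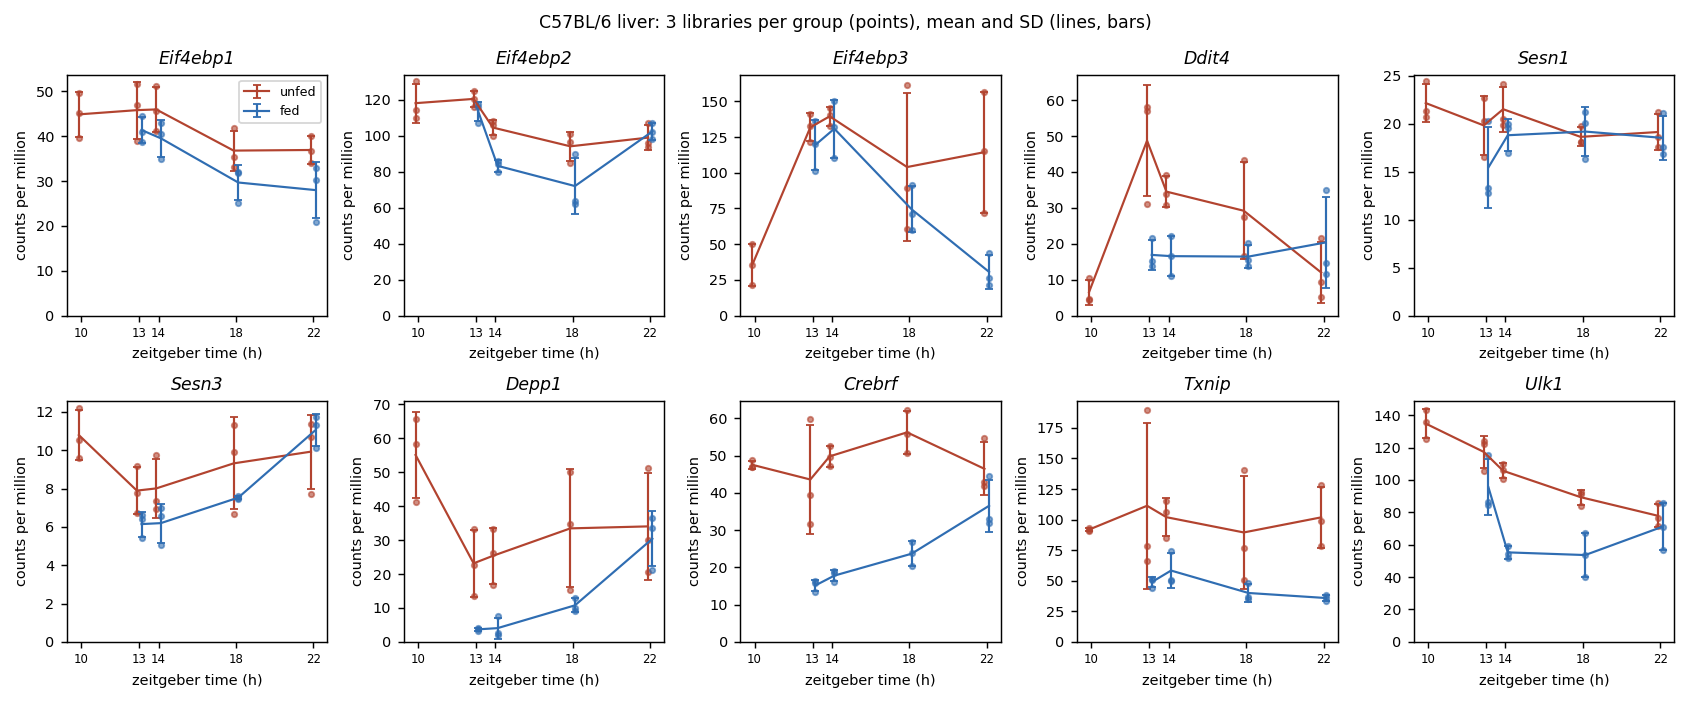
CPM of the 10 genes in C57BL/6 liver against zeitgeber time in hours, with unfed libraries in red and fed libraries in blue; points are libraries, lines join means and bars are SD (n = 3). Depp1, Crebrf, Txnip and Ddit4 are each separated by feeding at both ZT13 and ZT14, and Eif4ebp3 only at ZT22.

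Fed libraries lay wholly below unfed libraries for 5 of the 10 genes at ZT13, for 6 at ZT14, for 5 at ZT18 and for 3 at ZT22. Over all 14741 tested genes the shares were 9.25%, 14.9%, 20.2% and 16.3%. Since the genes were picked with feeding results known, nothing is read from that difference. No gene of the 10 had all fed libraries above all unfed libraries at any hour. The share of all tested genes in that direction was not counted, so nothing is read from this either. The median difference over the 10 was -0.36, -0.60, -0.61 and -0.14 log2 at ZT13, ZT14, ZT18 and ZT22, while the median over all tested genes lay between -0.01 and 0.01.

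**Figure D2:**
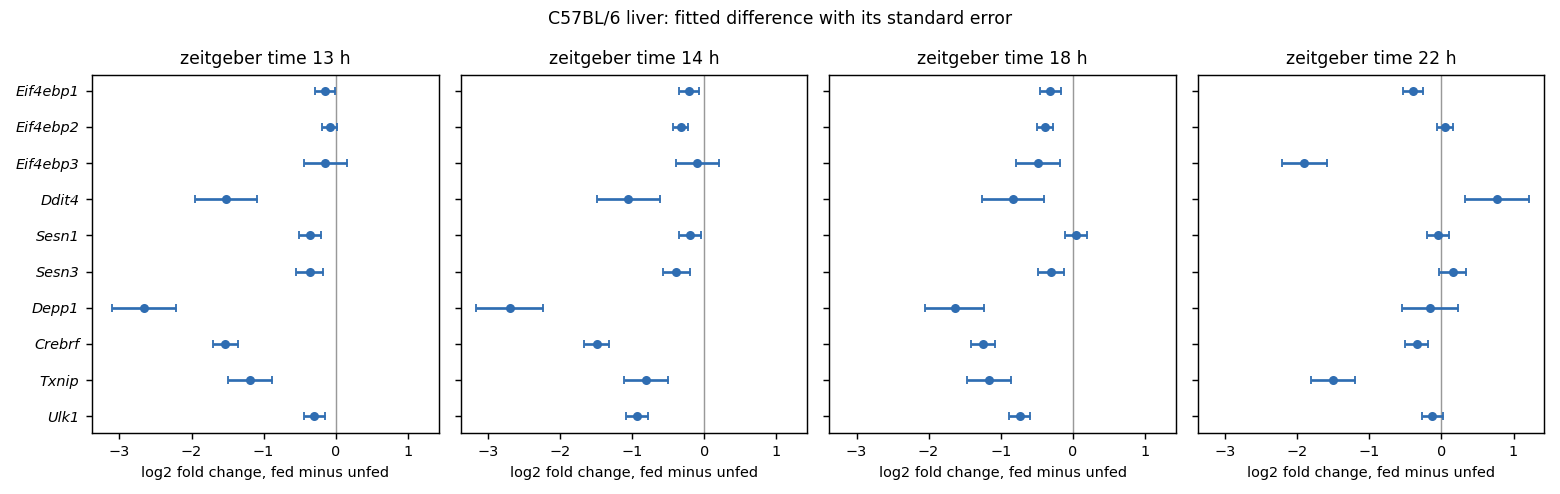
Fitted log2 fold change, fed minus unfed, of the 10 genes at 4 hours in C57BL/6 liver; points are estimates and bars are standard errors. The difference of Depp1 shrinks from -2.66 at ZT13 to -0.16 at ZT22, while that of Eif4ebp3 grows from -0.14 to -1.90.

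After GR loss, Eif4ebp3 was the gene of the 10 with the largest difference. CRE liver held 4.08, 6.18 and 6.15 CPM at ZT10 and GFP liver 22.6, 15.6 and 19.2 CPM. At ZT14 CRE liver held 6.48, 6.35 and 5.47 CPM and GFP liver 64.2, 47.2 and 67.7 CPM. The GFP means were higher from ZT12 to ZT18 than at ZT10 and ZT22, whereas the 18 CRE libraries stayed between 3.29 and 6.86 CPM. The mean difference was -2.78 ± 0.13 log2, or 6.89-fold lower, and it held rank 14 of 15709 tested genes counted from the largest decrease. By time it was -1.78, -3.05, -3.34, -3.29, -3.44 and -1.82 log2 at ZT10, ZT12, ZT13, ZT14, ZT18 and ZT22. The highest CRE library was lower than the lowest GFP library at all 6 times, which held for 27 of 15709 genes (0.172%). The gene was chosen with these values known, so this is a description.

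**Figure D3:**
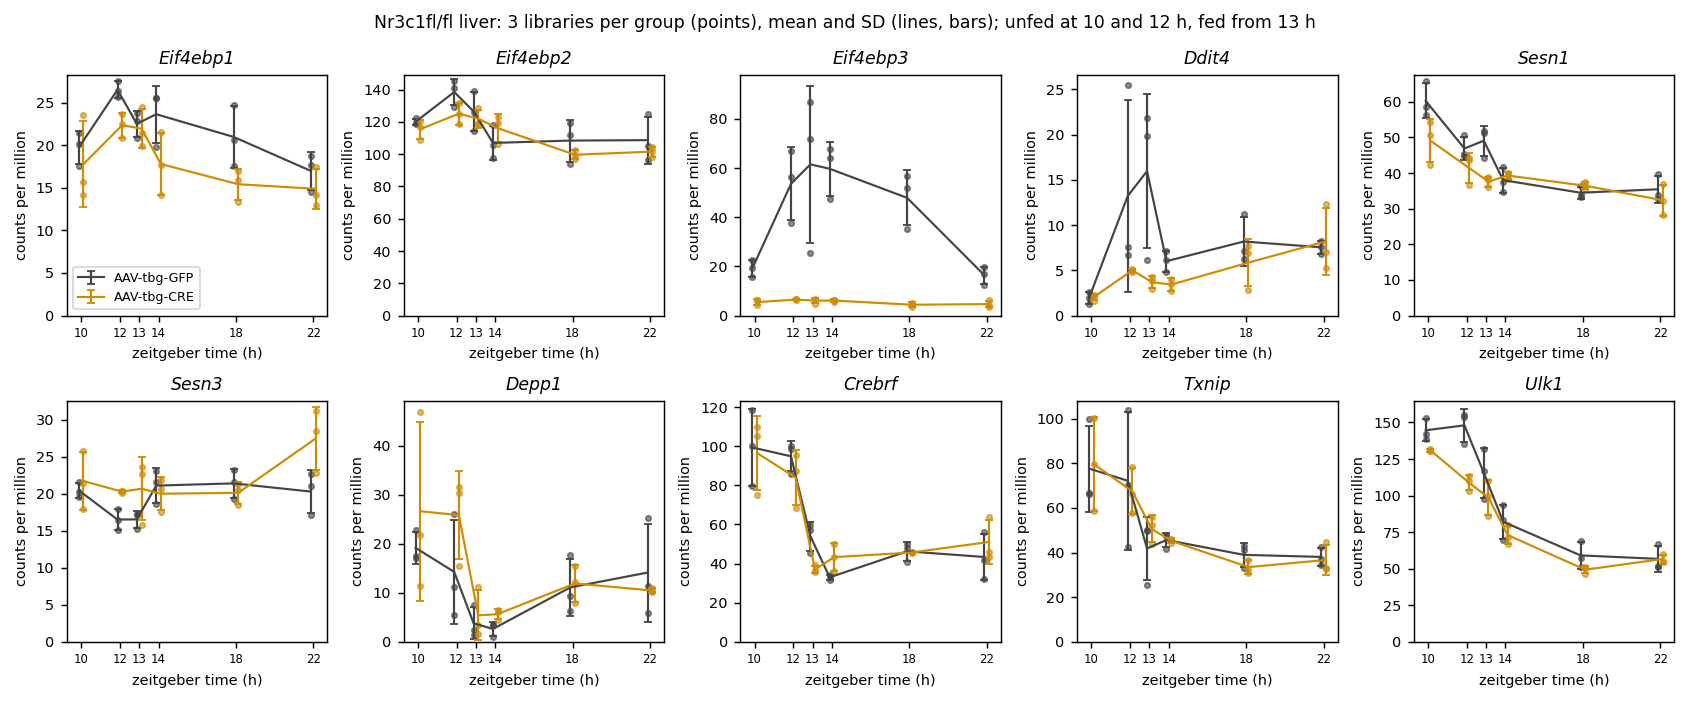
CPM of the 10 genes in Nr3c1fl/fl liver against zeitgeber time in hours, with AAV-tbg-GFP in grey and AAV-tbg-CRE in orange; points are libraries, lines join means and bars are SD (n = 3). Eif4ebp3 stays between 3.29 and 6.86 CPM in CRE liver at every time.

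Of the 7 tested genes, 4 were lower after GR loss over the 6 times and 0 were higher (edgeR, adjusted p under 0.05). Of all tested genes, 6.71% were called lower and 7.77% higher. The 7 were chosen with earlier results of these data known, so nothing is read from that difference. Ddit4, known to be induced by glucocorticoids in several tissues, fell by 0.76 ± 0.18 on the log2 scale (adjusted p = 0.00357). At ZT13 CRE liver held 2.95, 3.87 and 4.30 CPM and GFP liver 19.9, 21.8 and 6.19 CPM, a difference of -2.11 ± 0.43 log2 (adjusted p = 0.00238). All CRE libraries lay below all GFP libraries at ZT12, ZT13 and ZT14, and the groups overlapped at ZT10, ZT18 and ZT22. The share of all tested genes separated between the viruses at single times was not counted, so nothing is read from such separation. With only the ZT13 groups in the fit, the edgeR adjusted p for Ddit4 was 0.103 (0.000105 to 0.103 over all alternatives).

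Eif4ebp1, Ulk1 and Sesn1 fell by smaller amounts. Eif4ebp1 differed by -0.24 ± 0.07 log2 (adjusted p = 0.0116), and its libraries were separated at ZT12 (CRE 23.7, 22.6 and 20.8 CPM, GFP 26.4, 25.6 and 27.6 CPM) and at ZT18. Ulk1 differed by -0.21 ± 0.05 log2 (adjusted p = 0.00329), with CRE at 113, 110 and 103 CPM and GFP at 135, 154 and 155 CPM at ZT12. Sesn1 differed by -0.14 ± 0.04 log2 (adjusted p = 0.0192), and its sign was not the same at every time. At ZT13 CRE liver held 36.1, 37.9 and 38.8 CPM against 51.8, 51.2 and 44.3 CPM in GFP liver, and at ZT18 the CRE mean of 36.4 CPM lay above the GFP mean of 34.5 CPM. By time the Sesn1 difference was -0.29, -0.18, -0.38, 0.05, 0.08 and -0.13 log2 from ZT10 to ZT22. The Sesn1 libraries were separated at ZT10, ZT12 and ZT13 and overlapped at ZT14, ZT18 and ZT22. As for Ddit4, nothing is read from the separation of Eif4ebp1 or Sesn1 at single times, since the share of all genes was not counted. The edgeR call for Sesn1 was lost with its other RefSeq row (adjusted p = 0.264), over a range of 0.00788 to 0.264 for all alternatives. It was also lost without the libraries over 20% of NR_046233, where the difference was -0.13 log2. That fit had no GFP library at ZT10, so ZT10 was not in its mean.

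The remaining 3 tested genes did not pass the threshold over the 6 times. Sesn3 differed by 0.16 ± 0.06 log2 (edgeR adjusted p = 0.0527), Eif4ebp2 by -0.06 ± 0.04 (adjusted p = 0.358) and Txnip by -0.01 ± 0.10 (adjusted p = 0.961). By single time, 1 of the 7 was called at ZT12 (Ulk1, -0.44 ± 0.12 log2, adjusted p = 0.0309) and 2 at ZT13 (Ddit4 and Sesn1), where 3.64% and 5.09% of all genes were called. The Ulk1 call was lost when any ZT12 library other than GFP replicate 1 was left out (edgeR adjusted p up to 0.168) and when the share of NR_046233 entered the fit (edgeR adjusted p = 0.147). The Sesn1 call at ZT13 was lost when replicate 1 or 2 of either ZT13 group was left out (edgeR adjusted p up to 0.134), with the ZT13 groups fitted alone (adjusted p = 0.149) and with its second RefSeq row, where the difference was -0.13 log2 (adjusted p = 0.735). At ZT10, 14, 18 and 22 edgeR and DESeq2 each called 0 of the 7, and 1, 1, 2 and 1 of them had an unadjusted edgeR p under 0.05 (0.707%, 1.56%, 0.102% and 0.146% of all genes were called by edgeR). The difference of the GR effect among times was called for 0 of the 7 by edgeR and by DESeq2, with 2 at an unadjusted p under 0.05 (edgeR called 0.719% of all genes).

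Crebrf was lower in every fed library than in any unfed library of the same virus group, at 31.5 to 59.6 CPM against 79.7 to 118.6 CPM in GFP liver and at 35.5 to 63.9 CPM against 68.7 to 109.8 CPM in CRE liver. Depp1 was lower at ZT13 and ZT14 by its group means, but the fed GFP mean at ZT22 (14.1 CPM) was close to the unfed GFP mean at ZT12 (14.3 CPM). At ZT13 fed GFP liver held 2.41, 7.51 and 1.46 CPM of Depp1 and overlapped unfed GFP liver at ZT12 with 5.54, 26.1 and 11.1 CPM, whereas the CRE libraries did not overlap between these hours. From unfed ZT12 to fed ZT13 Depp1 differed by -1.88 ± 0.65 log2 in GFP liver and by -2.25 ± 0.63 log2 in CRE liver, and Crebrf by -0.81 ± 0.17 and -1.18 ± 0.18 log2. Here feeding and the hour change together and cannot be told apart. The change of this step with GR loss was called for 0 of 15709 genes by edgeR (0.0%), with 631 at an unadjusted p under 0.05, and for 10 by DESeq2. Over the 6 times Depp1 differed between CRE and GFP by 0.45 ± 0.26 log2 and Crebrf by -0.02 ± 0.07 log2.

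**Figure D4:**
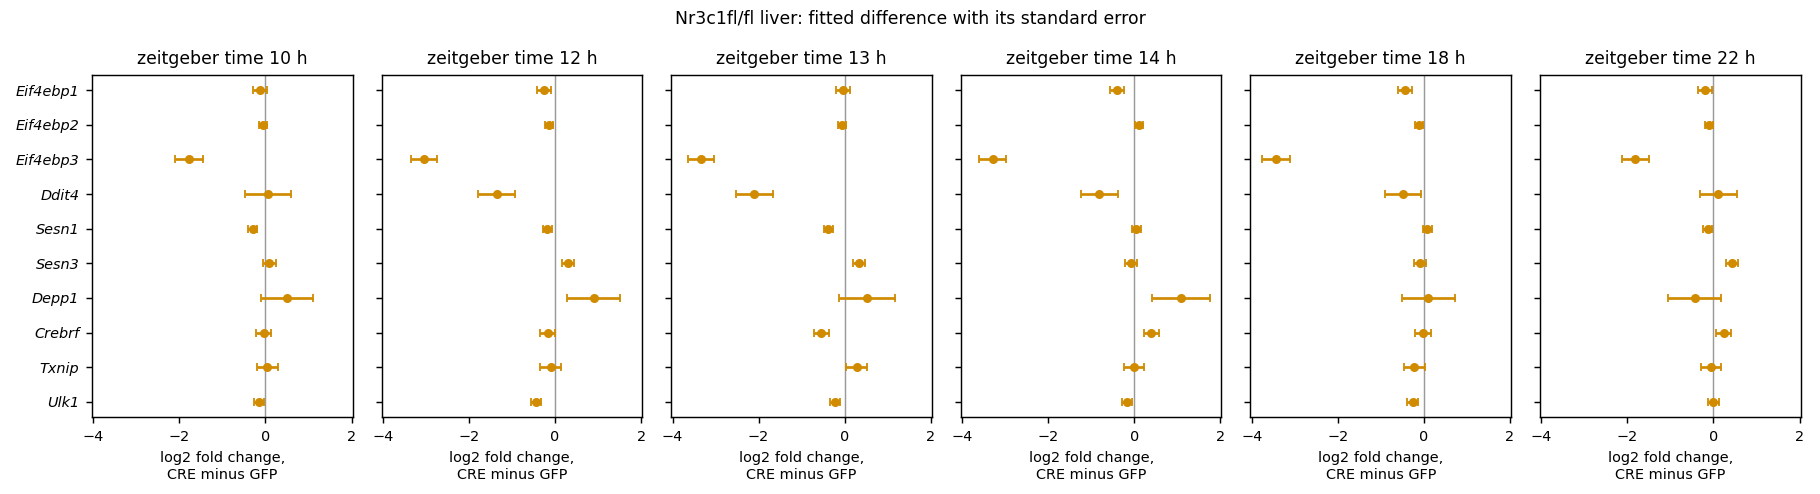
Fitted log2 fold change, CRE minus GFP, of the 10 genes at 6 times in Nr3c1fl/fl liver; points are estimates and bars are standard errors. Eif4ebp3 lies between -1.78 and -3.44 at every time, and Ddit4 is lowest at ZT13 with -2.11.

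GR chromatin peaks at ZT10 lay near all of these genes. In the concordant list of 5772 peaks, 10 of 10 genes had at least 1 peak within 25 kb of the gene, compared with 21.0% of all 24786 genes and 28.6% of the 15709 tested genes. The 10 genes had 17 peaks, and 6 genes had 2 or more, as did 7.21% of all genes and 10.5% of the tested genes. Since the genes were picked with results of these data known, nothing is read from these differences. Eif4ebp3 had a peak inside the gene and another 2.59 kb outside it. The Depp1 peak (chr6:116650364-116650572) covers the upstream bases shown above in capitals, with its midpoint at -216 bases from the start. Sesn1 had a peak (chr10:41810654-41810862) with its midpoint 184 bases after its first start and Sesn3 one (chr9:14275697-14275905) with its midpoint at -500 bases from its start. The nearest peak to Crebrf lay 12.8 kb outside the gene. The difference between CRE and GFP liver thus ranged from -2.78 log2 in Eif4ebp3 to 0.45 in Depp1 among genes that all had a peak nearby.

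**Figure D5:**
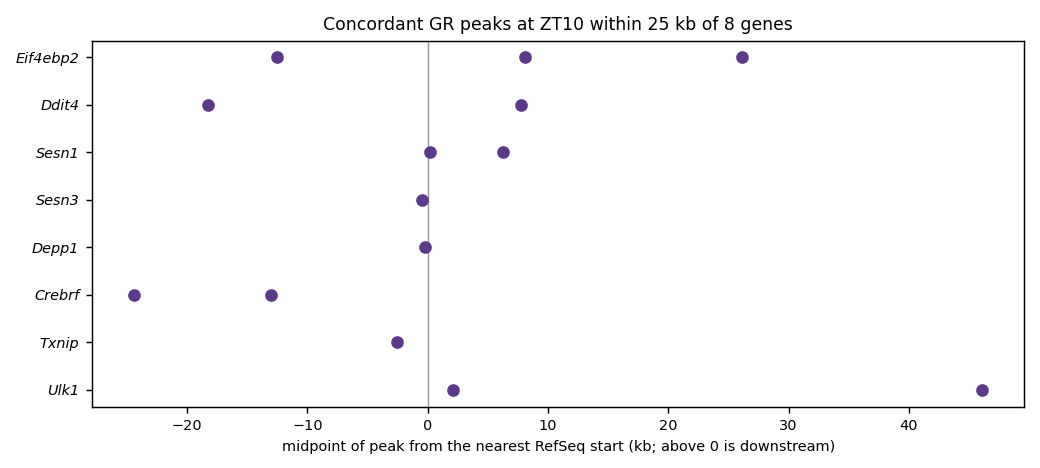
Distance in kb from the nearest RefSeq start to the midpoint of each concordant GR peak within 25 kb of 8 of the genes, those with a start in the promoter table. Sesn1, Sesn3 and Depp1 each have a peak within 1 kb of a start.

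Other genes of the same pathways were read from lists of genes that hold none of the 10. Over the 4 hours, 17.5% of all tested genes were higher and 17.9% lower in fed liver (edgeR, adjusted p under 0.05), with a median of 0.01 log2. Of 28 autophagy genes 15 fell and 1 rose (median -0.18 log2), among them Gabarapl1 (-0.77 ± 0.06, adjusted p = 7e-10) and Map1lc3b (-0.60 ± 0.06, adjusted p = 2.83e-08), which encode proteins of the autophagosome membrane. Of 18 FOXO factors and FOXO1 targets 11 fell and 1 rose (median -0.29), including Igfbp1 (-2.81 ± 0.20, adjusted p = 6.77e-11) and Irs2 (-1.22 ± 0.15, adjusted p = 4.42e-07). Of 28 genes in the list of mTORC1 and its regulators, which also holds Rictor and Mapkap1 of the related complex mTORC2, 9 fell and 4 rose. The third sestrin, Sesn2, fell by 1.35 ± 0.09 log2 (edgeR adjusted p = 1.69e-11). Of 20 genes of the cap-binding complex and S6 kinase branch 8 fell and 2 rose, with Eef2k, the kinase that slows translation elongation, higher by 0.58 ± 0.08 (adjusted p = 2.89e-06). In the thioredoxin and alpha-arrestin list, which also holds Mlxipl, Mlx, Mlxip, Slc2a1 and Slc2a2, 5 of 14 fell and 4 rose. In the CREB3 list 3 of 9 fell and 0 rose.

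After GR loss, 7.77% of all tested genes were higher and 6.71% lower, as given above, and the lists are set beside those shares. In the FOXO list 5 of 18 fell and 2 rose (median -0.09 log2, against -0.01 for all tested genes), with Foxo1 at -0.48 ± 0.04 (edgeR adjusted p = 2.78e-09) and Igfbp1 at -1.64 ± 0.31 (adjusted p = 0.000403). In the autophagy list 2 of 28 fell, Map1lc3b (-0.30 ± 0.04, adjusted p = 2.79e-06) and Bnip3 (-0.35 ± 0.05, adjusted p = 2.34e-05), and 1 rose. In the thioredoxin and alpha-arrestin list 2 of 14 fell. They were the alpha-arrestin Arrdc2, lower by 0.75 ± 0.12 log2 (edgeR adjusted p = 3.16e-05), and Slc2a1, at -0.21 ± 0.07 log2 (edgeR adjusted p = 0.0339). The mTORC1 list had 2 of 28 higher and 0 lower, the cap-binding list 2 of 20 higher and 1 lower, and the CREB3 list 0 of 9 in either direction by edgeR, with 2 at an unadjusted p under 0.05.

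The genes most like Eif4ebp3 over the 9 C57BL/6 group means were Jun (Pearson r = 0.97), Tmem41a (0.96), Tatdn2 (0.96), Thap12 (0.96) and Atp10d (0.95), out of 9970 genes with at least 5 CPM. Over the 12 Nr3c1fl/fl group means r was 0.31 for Jun and 0.81 for Tmem41a. Among those most like Depp1 were Rassf4 (0.995), whose interval covers it, Anapc7 (0.98), Ccdc50 (0.95) and Cnot6l (0.95). Among those most like Crebrf were Rictor (0.96), Ccdc50 (0.96), Cog5 (0.95) and Hbp1 (0.95), and Rictor kept an r of 0.93 over the 12 groups. These points share libraries and the hours of the night, and the values are descriptions.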

How the data were processed

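RNA counts per RefSeq transcript were deposited by the authors as whole numbers, not normalized. Between 75.7 and 85.1% of counts from 1 to 10 were even, so both reads of a pair may have been counted, and counts are not independent molecules. STAR, HOMER, DESeq2 and the builds mm10 and rn5 are named, without roles or versions, per the submitters' processing notes. GR peaks were deposited as positions only, read here as mm10 and 0-based. Rat hepatocyte data were not used here.

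Of 40458 rows, 40214 matched a symbol (GRCm38.p6 RefSeq table), giving 24786 genes. Unmatched rows held 0.316 to 28.7% of a library, the highest shares being NR_046233. Each table was fitted once over all its groups with edgeR 4.0.16 in R 4.3.3 (TMM, filterByExpr, quasi-likelihood test, Benjamini-Hochberg adjustment over all tested genes, threshold 0.05), which was tested on simulated data. CPM use TMM library sizes, except the marker sums. Log2 fold changes carry SE, and the SE is the absolute log2 fold change over the square root of F. Transcript lengths were not used, so levels are not compared between genes. Likeness used log2(CPM + 0.5).

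The genes, the lists and the markers were chosen with earlier results of these data known. Named genes were all 10 members, up to 4 per list with the smallest p in each mean contrast (not all are printed), and the 5 genes most like each of Eif4ebp3, Depp1 and Crebrf, of which some are not reported here. Alternatives were DESeq2 1.42.0, RLE factors, no filter, each library left out, a replicate block, groups fitted alone, the second RefSeq row, NR_046233 as a covariate, removal of the libraries with acinar or bile duct markers, other peak distances and lists, and, added after seeing the data, removal of libraries over 20% NR_046233.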

Additional observations from a re-analysis of the deposited data

Results flagged for a closer look

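Crebrf differed between the virus groups in opposite directions at neighbouring times. At ZT13 all 3 CRE libraries were lower than any GFP library (35.5, 36.6 and 39.1 CPM against 59.6, 57 and 45.6 CPM), a difference of -0.54 log2. At ZT14 all 3 CRE libraries were higher than any GFP library (36.2, 43.5 and 50.2 CPM against 34.1, 31.5 and 33.3 CPM), a difference of 0.39 log2. The difference between these times was not tested for this gene. The share of all tested genes separated between the viruses at ZT13 or at ZT14 was not counted, so nothing is read from the separation.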

How the results depend on the processing

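Over the 43 alternatives, Eif4ebp1, Ddit4 and Ulk1 stayed called lower after GR loss over the 6 times (highest adjusted p 0.0329, 0.0131 and 0.0211), Sesn1 in 41, and Sesn3 was called higher in 11, among them DESeq2 (adjusted p = 0.0436). Txnip, not called, changed sign in 11 of them, all with 1 library left out, where it lay between -0.055 and 0.051 log2. The alternative without the libraries over 20% NR_046233 had no GFP library at ZT10, so its mean left out ZT10 and was not over the 6 times. At ZT12 it kept only GFP replicate 3. The highest adjusted p of Eif4ebp1 and of Ulk1 came from that fit. It called 1355 genes, which cannot be compared with the 2274 of the main fit because the times differ. Eif4ebp3 kept its direction in every alternative run. Of the 10 genes, 9 had a concordant GR peak within 10 kb (21.0% of tested genes) and 10 within 100 kb (53.0%), and 10 had a peak within 25 kb in the list with input as control (62.1%) and in that with knockout liver as control (70.4%).

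Single times depended more on the fit, and the cause was not tested. DESeq2 called 200 genes at ZT10, 428 at ZT14, 83 at ZT18, 106 at ZT22, 407 for the difference among times and 10 for the step (111, 245, 16, 23, 113 and 0 in edgeR). The covariate gave 66 at ZT10 and 238 at ZT12. Groups fitted alone gave 55 at ZT13, 65 at ZT18 and 0 at ZT22. Of the 7 genes, 2 were called at ZT12 by DESeq2 and 0 with the covariate, and at ZT13 1 with second rows and 0 with groups alone. Leaving out 1 library gave 43 to 78 genes at ZT10, 267 to 484 at ZT12, 375 to 1344 at ZT13, 74 to 223 at ZT14, 1 to 6 at ZT18, 3 to 58 at ZT22, 67 to 266 for the difference among times, 0 to 5 for the step, and 0 to 2, 1 to 2 and 0 to 1 of the 7 genes at ZT12, at ZT13 and for the difference among times.

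With the number as a replicate block, 5254 genes were called for feeding (5214 without) and 2268 for GR loss, and no call of the 7 genes changed. For each library, the deviation of log2 CPM from its group mean was taken over all tested genes. These deviations were compared between same-numbered libraries of the fed and unfed, or CRE and GFP, groups of an hour. They correlated between -0.04 and 0.08 in the feeding table and between -0.14 and 0.13 in the virus table. These low correlations cannot show whether such libraries share more than a number.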
